A study of Mus musculus with 36 samples.

Results

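The BBSome, the cargo adaptor of the primary cilium, and the proteins that load and assemble it were followed through 10 genes: Bbs1, Bbs2, Bbs4, Bbs5, Bbs7, Bbs9 and Ttc8 (BBSome subunits), Arl6 (the GTPase that brings the complex to membranes), and Mkks and Bbs10 (chaperonin-like assembly factors). They were taken by gene name from the 53421 genes of the count table, and all 10 passed the filter on low counts in every comparison. RNA was sequenced from cells of a mouse line, described as fibroblast-like chondrocytes, that had received a control siRNA pool with no target (NT) or a pool against Ift88 (IFT88siRNA), and was collected at 0, 1, 2, 4, 8 or 24 h of IL-1β at 10 ng/ml. With 3 replicates in each of the 12 conditions there were 36 libraries. Every library came from 1 conditionally immortalised line that had been moved out of its growth-permissive culture, and both arms received a transfection. The labels and the study's methods give different siRNA doses, with 50 nM on the labels. The 0 h libraries are the sole IL-1β-free samples, so time in culture and IL-1β cannot be told apart. Nothing in the labels says that replicates were separate cultures, so p-values measure the spread between these samples, which may be technical.

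The BBSome is a coat-like complex that rides on intraflagellar transport trains and carries membrane receptors out of the cilium. Bbs2, Bbs7 and Bbs9 form its core, which the chaperonin-like proteins Mkks, Bbs10 and Bbs12 build together with the CCT chaperonin ring. The remaining subunits are then added, and Arl6 bound to GTP recruits the finished complex to membranes through Bbs1. Loss of any 1 of the 10 genes in people causes Bardet-Biedl syndrome. The comparisons asked whether the genes answer IL-1β, and whether depletion of Ift88, a subunit of the transport trains, alters their level or that answer.

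Depth ran from 19337022 to 38304127 counts per library, and the 10 genes together held 0.0122% to 0.0226% of them. Replicates differed by more than sampling noise, with a chi-square per degree of freedom of 1.65 to 10.0 over the 36 replicate pairs. Fibroblast markers were present, with a mean of at least 1 TPM (a level per length, relative to all transcripts of the library) for 10 of 10. Cartilage markers reached it for 7 of 12: Col2a1, Sox9, Sox6, Comp, Hapln1, Col11a1 and Prg4. Acan, Sox5, Matn1, Matn3 and Col9a1 did not. Endothelial markers reached it for 0 of 5, epithelial markers for 1 of 6, multiciliated cell markers for 1 of 6, and macrophage and leukocyte markers for 2 of 6. The 8 of 8 proliferation markers that reached it had a summed level of 1447 to 2204 TPM in NT and 1500 to 2226 TPM in IFT88siRNA libraries, and their part in the results was not tested. The targeted gene checked the labels: Ift88 had 9.17, 8.66 and 9.36 CPM (read counts relative to library size, scaled by TMM) in NT at 0 h and 2.59, 2.89 and 2.82 CPM in IFT88siRNA. Its log2 difference lay between -2.12 at 2 h and -1.47 at 24 h, and the arms did not overlap at any of the 6 time points.

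The genes are spread over the genome, in GRCm38 coordinates of GENCODE M21. Bbs9, at chr9:22475715-22888280 on the plus strand, spans 413 kb, and Bbs10, at chr10:111298679-111301727 on the plus strand, spans 3.05 kb with at most 2 exons in a transcript. Bbs5 lies at chr2:69647171-69667571 and Ttc8 at chr12:98920574-98983238, both on the plus strand. The other genes are on the minus strand: Bbs1 at chr19:4886878-4906628, Bbs2 at chr8:94067954-94098928, Bbs4 at chr9:59321990-59353508, Bbs7 at chr3:36573142-36613477, Arl6 at chr16:59612949-59639391 and Mkks at chr2:136873780-136891389. The study counted reads with default parameters and named no strand setting. Exons of other counted genes overlap those of Bbs4 (Adpgk, 3.21% of its exonic length) and of Mkks. For Mkks the overlap is with the same-strand gene AL731706.1 over 29.3% of its exonic length and with Slx4ip over 5.33%. Its values are therefore uncertain, and its TPM, which salmon estimates from transcripts, is given beside them.

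X-box motifs bind the RFX transcription factors that drive many ciliary genes, so the promoters were searched on both strands for 1 form, the half-sites GTNNCC and GNNAC with 3 bases of any kind between them. The RefSeq windows used (GRCm38.p6) run from 250 bases before to 50 after each start, and all 10 genes had one. The form lay in 3 of the 10, Bbs1, Bbs4 and Bbs7, and in 4.62% of all 32851 windows. In those 3 genes it matched on both strands at the same bases. The sites are shown because Bbs7 and Bbs1 are among the genes that fell most at 4 h, described later. Genes without the form fell about as much as Bbs1 (-0.56 on the log2 scale in NT): Ttc8 (-0.58), Bbs10 (-0.56) and Bbs2 (-0.53). A link between the form and the falls was not tested. Bbs4 is the gene that did not pass the count test over the course in NT. Each is written 5′ to 3′ along its gene, on the minus strand of the chromosome, with the motif in capitals.
Bbs7, chr3:36613489-36613518: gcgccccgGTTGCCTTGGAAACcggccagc
Bbs1, chr19:4906605-4906634: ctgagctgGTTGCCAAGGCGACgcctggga
Bbs4, chr9:59353464-59353493: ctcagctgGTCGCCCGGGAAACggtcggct
Counted from the annotated start as 1, the first motif base was at -121 in Bbs7, at 2 in Bbs1 and at 24 in Bbs4. A pair of motifs of inflammatory factors was searched in the same windows and on both strands. A form of the NFκB site, GGG and TTCC with 3 bases of any kind between them, was in 0 of the 10 windows and in 5.56% of all windows. TGANTCA, the AP-1 site, was in 1, that of Bbs5, and in 7.81% of all windows. These motifs were chosen with the expression values known, and a match is a description of letters, not of a bound site.

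Levels between genes were compared in TPM. Arl6 was the highest at 43.2 ± 5.49 TPM (mean ± SD over the 36 libraries), followed by Bbs7 at 28.0 ± 6.99, Ttc8 at 16.8 ± 3.42, Bbs2 at 12.2 ± 2.67 and Bbs9 at 11.6 ± 3.35 TPM. Bbs5 had 9.48 ± 2.76, Mkks 7.91 ± 2.23, Bbs4 6.09 ± 1.01, Bbs1 5.13 ± 1.17 and Bbs10, the lowest, 2.21 ± 1.05 TPM. In TPM the top 3 held their order in 36 of 36 libraries, and Bbs10 was below Bbs1 in 36 of 36. The order depended on the measure. By mean TMM CPM per kb of exonic length Bbs2 ranked 3 and Ttc8 4, and Bbs1 ranked above Bbs5 and Bbs4. The middle of the order was not fixed: Bbs2 exceeded Bbs9 in 22 of 36 libraries, Bbs9 exceeded Bbs5 in 23, Bbs5 exceeded Mkks in 30, Mkks exceeded Bbs4 in 32 and Bbs4 exceeded Bbs1 in 28. Subunits of 1 complex thus differed in transcript level, and the level of Bbs10 rested on 26 to 174 counts per library, the fewest of the 10.

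**Figure D1:**
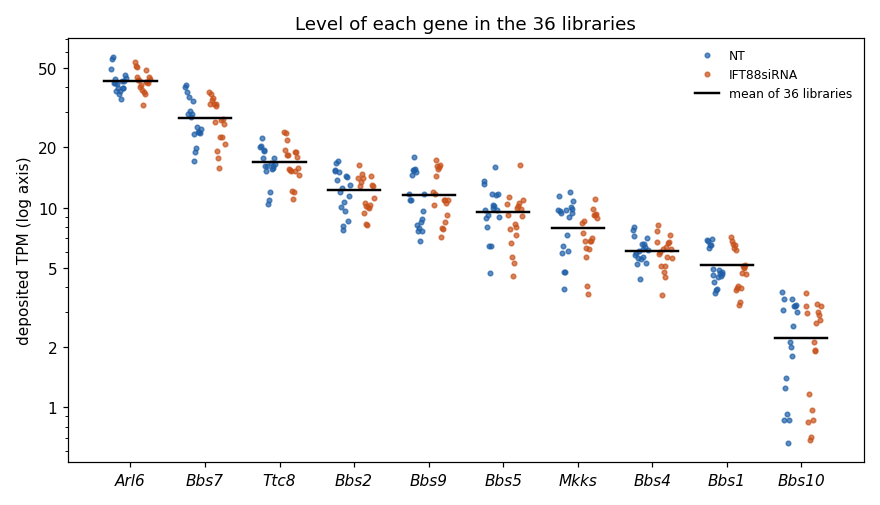
Deposited TPM of the 10 genes (log axis) in each of the 36 libraries, with NT points to the left and IFT88siRNA points to the right of each gene, and a black bar at the mean. Arl6 is highest at 43.2 TPM and Bbs10 lowest at 2.21, and the highest library exceeds the lowest 5.68-fold for Bbs10 against 1.73-fold for Arl6.

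Most of the 10 genes changed over the IL-1β course, and their lowest levels did not all come at the same time. By mean CPM the lowest level came at 2 h for some and at 4 h for others. In NT it came at 8 h for Arl6 and Bbs9. The chaperonin-like genes Bbs10 and Mkks, together with the subunit Bbs5, were at their lowest at 2 h, for Bbs10 in IFT88siRNA at 1 and 2 h alike, and back near their starting level by 8 h. Bbs7, Bbs1, Bbs2 and Ttc8, all subunits, reached their lowest level at 4 h and stayed below the start to 24 h in NT. Bbs9 rose at 1 and 2 h and was below its start at 4 and 8 h. Arl6 and Bbs4 moved little. In NT, edgeR's quasi-likelihood test of the 5 changes together called 5 of 10 genes at adjusted p under 0.05 and over 1.5-fold (Bbs5, Bbs7, Bbs9, Bbs10 and Mkks), and in IFT88siRNA 6 of 10 (Bbs1, Bbs7, Bbs9, Bbs10, Mkks and Ttc8). Of all genes tested, 50.0% were called in NT and 48.2% in IFT88siRNA, so these shares were near the background. On adjusted p alone 9 of 10 passed in NT, all but Bbs4 (adjusted p = 0.256), and 10 of 10 in IFT88siRNA, against 88.4% and 86.0% of all genes. By limma on log2(TPM + 1) Bbs4 passed in NT too. Here "rose" and "fell" are used for an adjusted p under 0.05, and errors on log2 changes are SE. In bulk RNA fewer cells of a type and less RNA per cell cannot be told apart.

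**Figure D2:**
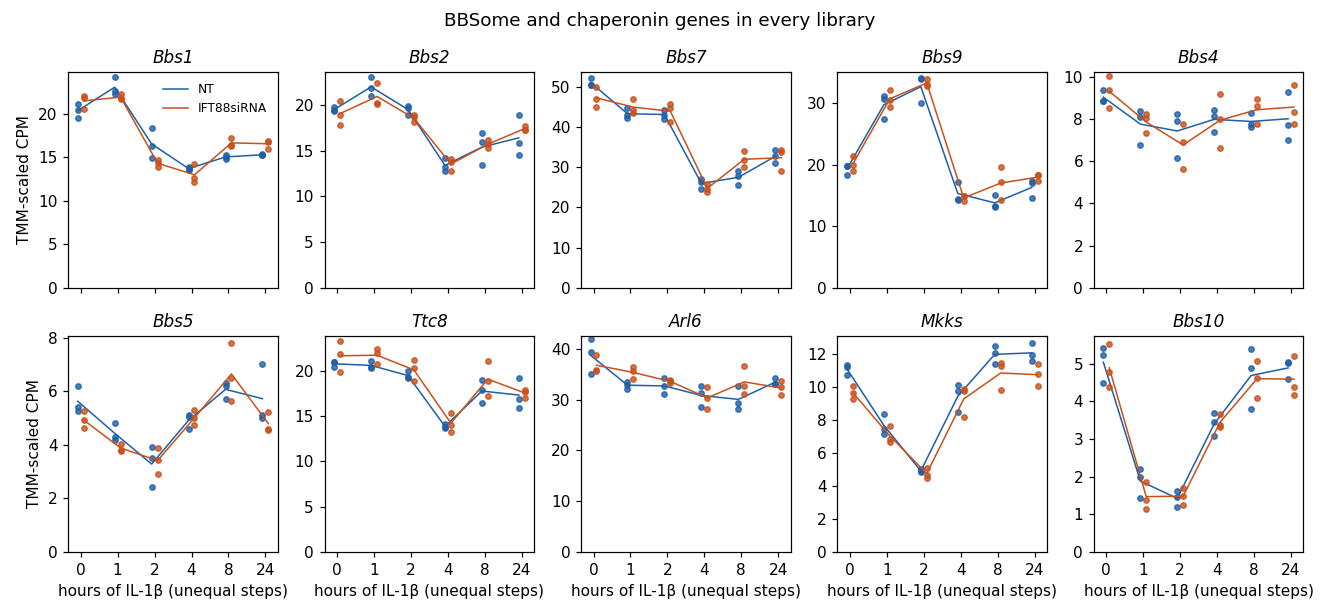
TMM-scaled CPM of each gene (vertical axes from 0) against hours of IL-1β in unequal steps, 1 point per library, with lines through the means of 3 NT (blue) and 3 IFT88siRNA (orange) libraries. Bbs5 and Mkks dip at 2 h and Bbs10 at 1 and 2 h, Bbs9 peaks at 2 h, and Bbs1, Bbs2, Bbs7 and Ttc8 dip at 4 h, in both arms.

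Bbs10, a chaperonin-like protein needed to assemble the BBSome core, had the largest fall of the 10. The 3 NT libraries had 5.41, 4.49 and 5.23 CPM at 0 h, 1.44, 1.996 and 2.21 at 1 h, 1.62, 1.18 and 1.47 at 2 h, 3.68, 3.44 and 3.08 at 4 h and 5.01, 5.06 and 4.61 at 24 h. The libraries at 1, 2 and 4 h all lay below those at 0 h, and those at 24 h lay among them. The log2 change was -1.41 ± 0.16 at 1 h (adjusted p = 1.05e-07, edgeR) and -1.83 ± 0.17 at 2 h (adjusted p = 1.74e-09), a 3.56-fold fall. It was -0.56 ± 0.15 at 4 h (adjusted p = 0.00221) and -0.10 and -0.04, not past the threshold, at 8 and 24 h. In IFT88siRNA the libraries had 5.52, 4.78 and 4.38 CPM at 0 h, 1.39, 1.87 and 1.15 at 1 h and 1.25, 1.69 and 1.49 at 2 h. The fall there was -1.73 ± 0.17 at 1 h and -1.73 ± 0.17 at 2 h on the log2 scale (adjusted p = 7.79e-09 and 3.95e-09). The deposited TPM of Bbs10 fell 4.22-fold by 2 h in NT and 3.90-fold in IFT88siRNA.

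Mkks, the second chaperonin-like gene of the set, dipped at the same time and was not below its start at 8 or 24 h. In NT it had 11.2, 10.7 and 11.4 CPM at 0 h, 7.48, 7.16 and 8.37 at 1 h, 5.01, 4.88 and 4.84 at 2 h and 11.4, 12.1 and 12.5 at 8 h. All libraries at 1 and 2 h were below those at 0 h, with the 2 h libraries the lowest of the course. The log2 change was -0.54 ± 0.09 at 1 h (adjusted p = 1.17e-05, edgeR) and -1.18 ± 0.09 at 2 h (adjusted p = 5.99e-11), or 2.27-fold lower. In IFT88siRNA it had 9.61, 9.29 and 10.1 CPM at 0 h and 4.47, 5.08 and 4.68 at 2 h, a log2 change of -1.03 ± 0.10 (adjusted p = 6.54e-09). At 8 and 24 h its change was 0.12 and 0.12 in NT and 0.17 and 0.15 in IFT88siRNA, none past the threshold. In TPM, where salmon shares reads out among transcripts, Mkks was 2.29-fold lower by 2 h in NT and 1.75-fold lower in IFT88siRNA.

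Bbs12, the third chaperonin-like gene, is not among the 10 but was fixed in the list of remaining complex genes, and it also fell early. It went from 17.8, 19.7 and 17.8 CPM at 0 h to 8.86, 8.16 and 8.56 at 1 h and 8.04, 7.11 and 10.3 at 2 h in NT, then 16.9, 18.1 and 15.1 at 4 h and 20.4, 21.9 and 23.5 at 24 h. The log2 change was -1.12 ± 0.10 at 1 h and -1.12 ± 0.10 at 2 h in NT, and -1.04 ± 0.10 and -1.06 ± 0.10 in IFT88siRNA (adjusted p between 8.39e-10 and 8.23e-09, edgeR). It rose at 24 h, by 0.25 in NT and 0.25 in IFT88siRNA (adjusted p = 0.0211 and 0.0289). Thus all 3 chaperonin-like genes fell past 1.5-fold at 2 h in both arms, where 14.3% of all genes in NT and 13.2% in IFT88siRNA were called lower. The other gene of that list, Bbip1, the smallest BBSome subunit, went the other way early: it rose by 0.23 ± 0.09 in NT and 0.38 ± 0.07 in IFT88siRNA at 2 h (adjusted p = 0.0274 and 4.7e-05). With upper-quartile scaling these values were 0.12, not past the threshold, and 0.27, and with log2(TPM + 1) they were 0.0044, not past the threshold, and 0.12. By either setting the rises of Bbs12 at 24 h did not pass. Bbip1 fell at 8 h by 0.50 ± 0.09 in NT and 0.29 ± 0.07 in IFT88siRNA (adjusted p = 7.6e-05 and 0.00149). Bbs12 shares 1.31% of its exonic length with Cetn4, and Bbip1 2.20% with Shoc2.

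The CCT ring is the general chaperonin that works with these 3 proteins. In NT edgeR called 0 of its 8 genes at 1 h, against 18.7% of all genes. On adjusted p alone 6 of 8 were lower and 0 higher, against 25.8% of all genes lower, and the median log2 change was -0.16 beside -0.01 for all genes. In IFT88siRNA at 1 h the median was -0.08, beside -0.01 for all genes. The test of a different response in the arms passed for 0 of the 8 on adjusted p, against 5.53% of all genes. At 8 h 7 of 8 were higher and 0 lower in NT, against 27.1% of all genes higher, with a median of 0.19 beside -0.01. In IFT88siRNA at 8 h the median was 0.23, beside -0.002 for all genes. Cct3 at 4 h, 0.71 ± 0.04 in NT and 0.76 ± 0.06 in IFT88siRNA (adjusted p = 2.56e-13 and 1.68e-11), was the sole call past 1.5-fold in any IL-1β contrast.

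Bbs5, the subunit with lipid-binding domains, shared the dip at 2 h. NT libraries had 5.41, 6.18 and 5.28 CPM at 0 h, 3.91, 2.42 and 3.51 at 2 h and 6.199, 6.303 and 5.71 at 8 h, and those at 2 h were all below the start. The log2 change at 2 h was -0.79 ± 0.16 in NT (adjusted p = 0.000111, edgeR), a call that was lost without replicate 2. It was -0.53 ± 0.13 in IFT88siRNA at that time (adjusted p = 0.00163). In IFT88siRNA it then rose above the start at 8 h, by 0.43 ± 0.12 (adjusted p = 0.00457), where the libraries had 6.49, 5.64 and 7.79 CPM against 4.91, 4.61 and 5.26 at 0 h. With log2(TPM + 1) that value was 0.22 (adjusted p = 0.408, limma), not past the threshold. The NT value at 8 h was 0.11 ± 0.14 (adjusted p = 0.535), and the test of a different response in the 2 arms was not past the threshold for Bbs5 (adjusted p = 0.57).

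Bbs9, a core subunit, was the single gene of the 10 called as higher at any time. NT libraries had 18.4, 19.8 and 19.8 CPM at 0 h, 31.2, 27.5 and 30.7 at 1 h, 34.02, 34.1 and 30.04 at 2 h, 17.2, 14.5 and 14.4 at 4 h and 13.1, 15.2 and 13.2 at 8 h. All 1 and 2 h libraries were above those at 0 h, and all 4 and 8 h libraries were below. It rose by 0.62 ± 0.08 at 1 h and 0.75 ± 0.08 at 2 h (adjusted p = 5.51e-07 and 1.18e-08, edgeR), or 1.69-fold, and 13.0% of all genes were called higher at 2 h. In IFT88siRNA the rise was 0.61 ± 0.08 and 0.72 ± 0.08 (adjusted p = 1.04e-06 and 3e-08), from 21.4, 19.1 and 19.98 CPM at 0 h to 33.2, 34.03 and 32.8 at 2 h. Bbs9 TPM rose 1.45-fold by 2 h in NT and 1.41-fold in IFT88siRNA, under the 1.5-fold threshold, and without replicate 1 the count test did not call the rise at 1 h in NT. The later fall was -0.48 ± 0.09 at 8 h in NT and -0.24 ± 0.08 in IFT88siRNA (adjusted p = 4.37e-05 and 0.0177). In IFT88siRNA it was -0.16 with log2(TPM + 1), not past the threshold (adjusted p = 0.209, limma).

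Bbs7, a propeller subunit that pairs with Bbs2 in the core, had the largest sustained fall. NT libraries had 50.4, 52.3 and 50.5 CPM at 0 h, 42.1, 43.02 and 44.2 at 2 h, 26.2, 24.5 and 27.1 at 4 h, 25.6, 28.96 and 27.9 at 8 h and 34.2, 32.9 and 30.9 at 24 h. Every later library was below every 0 h library. The log2 change was -0.97 ± 0.06 at 4 h (adjusted p = 1.25e-13, edgeR), a 1.96-fold fall, -0.89 ± 0.05 at 8 h and -0.64 ± 0.05 at 24 h (adjusted p = 7.29e-13 and 2.43e-10). It was the sole gene of the 10 called in NT at 4, 8 and 24 h, where 12.4%, 7.87% and 9.71% of all genes were called lower. In IFT88siRNA it had 49.9, 44.9 and 46.8 CPM at 0 h and 25.8, 24.5 and 23.8 at 4 h, and changed by -0.93 ± 0.07 at 4 h, -0.56 ± 0.07 at 8 h and -0.55 ± 0.07 at 24 h (adjusted p = 1.91e-11, 1.38e-07 and 2.38e-07). The values at 8 and 24 h in that arm were under 1.5-fold.

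Bbs1, the subunit that binds Arl6, fell from 2 h on. NT libraries had 21.1, 20.5 and 19.5 CPM at 0 h, 22.6, 22.3 and 24.2 at 1 h, 16.3, 18.3 and 14.97 at 2 h and 13.6, 13.9 and 13.7 at 4 h. The 1 h libraries were above the start and the 2 and 4 h libraries below it. At 1 h it rose by 0.18 ± 0.06 (adjusted p = 0.0255, edgeR), while on the log2(TPM + 1) scale it was -0.000259, where the median of all genes was -0.14. Relative to that median Bbs1 was at 0.14, against 0.18 relative to the median with counts. The fall was -0.31 ± 0.07 at 2 h and -0.56 ± 0.07 at 4 h (adjusted p = 0.000344 and 1.58e-07). In IFT88siRNA the libraries had 22.1, 21.8 and 20.5 CPM at 0 h, 14.4, 13.9 and 14.7 at 2 h and 12.1, 12.6 and 14.2 at 4 h. There the fall was -0.59 ± 0.07 at 2 h and -0.72 ± 0.07 at 4 h (adjusted p = 5.29e-08 and 1.58e-09), and the call at 2 h was lost without replicate 1 and without replicate 2.

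Bbs2, the partner of Bbs7, and Ttc8, a subunit built of TPR repeats, fell at 4 h. Bbs2 went from 19.3, 19.8 and 19.5 CPM at 0 h to 13.2, 12.8 and 14.2 at 4 h in NT, a log2 change of -0.53 ± 0.09 (adjusted p = 1.55e-05, edgeR). Ttc8 went from 20.96, 20.4 and 20.9 to 13.8, 13.6 and 14.1 CPM, a change of -0.58 ± 0.07 (adjusted p = 1.81e-07). For both genes the groups did not overlap. In IFT88siRNA the changes at 4 h were -0.49 ± 0.07 for Bbs2 and -0.61 ± 0.08 for Ttc8 (adjusted p = 1.52e-06 and 5.97e-07). In NT at 2 h the values were -0.00 and -0.10 with counts, and -0.44 and -0.38 with log2(TPM + 1), where the median of all genes was itself at -0.22. Both Bbs2 and Ttc8 were still lower at 24 h in NT, by -0.25 and -0.26 (adjusted p = 0.0197 and 0.00224).

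Arl6 and Bbs4 stayed under a 1.5-fold change in both arms throughout, by counts with TMM. In TPM Bbs4 was 1.55-fold lower at 2 h in IFT88siRNA. Arl6 had 34.99, 39.4 and 41.9 CPM at 0 h and 32.7, 28.1 and 29.4 at 8 h in NT, and fell at every time point, by -0.21 at 24 h to -0.36 at 8 h on the log2 scale (adjusted p = 0.00983 and 5.43e-05, edgeR). In IFT88siRNA it fell at 4 and 24 h, by -0.28 and -0.19 (adjusted p = 0.000659 and 0.0205). Bbs4, a subunit also found at centriolar satellites, had 9.38, 8.87 and 8.87 CPM at 0 h and 7.93, 8.25 and 6.13 at 2 h in NT, a log2 change of -0.29 ± 0.11 (adjusted p = 0.0323). DESeq2 gave an adjusted p of 0.0681 for it, and it did not pass without replicate 1 (-0.31) or without replicate 3 (-0.18). It passed at -0.40 with upper-quartile scaling (adjusted p = 0.00477, edgeR) and at -0.45 with log2(TPM + 1) (adjusted p = 0.00232, limma). The median of all genes was itself at -0.12 and -0.22 there. The change of Bbs4 at 2 h in IFT88siRNA was -0.47 ± 0.12 (adjusted p = 0.00226), or -0.29 and not past the threshold without replicate 1. No other time point passed in either arm by edgeR with TMM. With upper-quartile scaling and with log2(TPM + 1) Bbs4 also passed at 1 and 4 h in NT and at 4 h in IFT88siRNA.

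**Figure D3:**
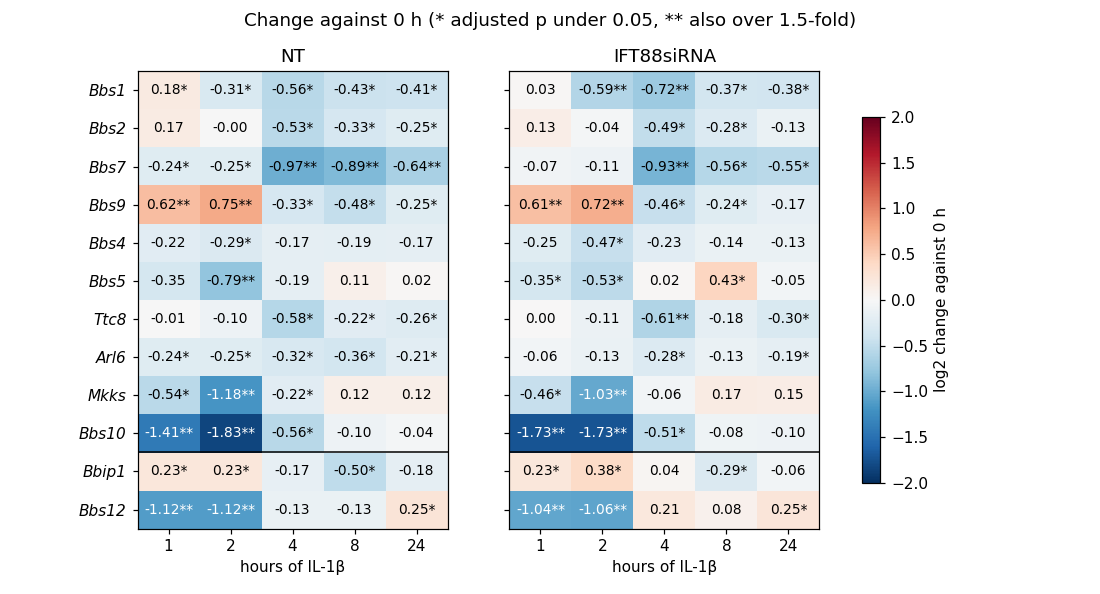
log2 change against 0 h of the same arm for the 10 genes, with Bbip1 and Bbs12 under the line, at 1 to 24 h of IL-1β in NT (left) and IFT88siRNA (right). One asterisk is an adjusted p under 0.05 and 2 are also over 1.5-fold; the strongest cell is Bbs10 at 2 h in NT, -1.83.

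Counted by time point, edgeR called 2 of 10 genes in NT at 1 h, 4 at 2 h and 1 each at 4, 8 and 24 h, against 18.7%, 27.3%, 28.7%, 19.7% and 16.3% of all genes. In the depleted arm the calls numbered 2 at 1 h, 4 at 2 h, 3 at 4 h and 0 at 8 and 24 h, against 15.1%, 25.6%, 29.3%, 17.6% and 14.2%. On adjusted p alone the direction was uneven at 4 h, when 8 of 10 were lower and 0 higher in NT, and 7 lower and 0 higher in IFT88siRNA. Of all genes, 29.7% were lower and 31.2% higher in NT, and 29.4% lower and 30.4% higher in IFT88siRNA. The 10 genes had a median log2 change of -0.43 at 4 h in NT and of -0.48 in IFT88siRNA, beside -0.02 and -0.01 for all genes. For the 0 calls at 8 and 24 h in IFT88siRNA, edgeR gave 7 and 4 genes at an unadjusted p under 0.05, and DESeq2 and limma also called 0. Proliferation markers moved over the same hours: in NT 3 of 8 were called lower and 0 higher at 2 h, and 5 of 8 lower and 0 higher at 4 h, against 14.3% and 12.4% of all genes called lower. Their median log2 changes were -0.54 and -0.61 in NT and -0.61 and -0.55 in IFT88siRNA. Fibroblast markers had a median log2 change at 4 h of 0.59 in NT and 0.67 in IFT88siRNA. The part of either list in the changes of the 10 genes was not tested.

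The courses fell into groups that the member list did not fix. Over the 12 condition means of log2 CPM, Pearson's r was 0.94 between Bbs5 and Mkks, 0.93 between Bbs10 and Mkks and 0.89 between Bbs5 and Bbs10. It was 0.92 between Bbs2 and Bbs7, and 0.90 between Ttc8 and either of them. Bbs9 ran against the chaperonin-like genes, with r of -0.87 with both Bbs10 and Mkks. These values describe 12 conditions that share their 0 h baselines and the scaling, and no test was made of them. Among 13258 genes with a mean of at least 1 CPM, the courses most like that of Bbs7 were those of Celf5 (r = 0.98), Usp2 (r = 0.98) and Mrps6 (r = 0.98). The courses most like the mean scaled profile of the 10 genes were those of Depdc7 (r = 0.98), Osbpl2 (r = 0.98) and Dolpp1 (r = 0.97).

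Depletion of Ift88 left the 10 genes with differences under 1.5-fold. At 0, 1, 2, 4, 8 and 24 h edgeR called 0 of 10 genes, and also 0 on adjusted p alone, where 19.5%, 19.0%, 2.76%, 3.85%, 4.25% and 8.66% of all genes passed. The number at an unadjusted p under 0.05 was 2 at 0 h (Bbs7 and Mkks), 0 at 1 h, 1 at 2 h (Bbs1), 0 at 4 h, 2 at 8 h (Bbs7 and Bbs9) and 1 at 24 h (Mkks). DESeq2 and limma on log2(TPM + 1) also called 0 at each time. With both thresholds 2.23%, 2.66%, 0.496%, 0.432%, 0.692% and 1.15% of all genes were called. The 95% intervals bound what could have been missed: of the 60, 1 reached past 1.5-fold, that of Bbs10 at 1 h, at -0.36 (-0.84 to 0.12). There NT libraries had 1.44, 1.996 and 2.21 CPM and IFT88siRNA libraries 1.39, 1.87 and 1.15 CPM, and the groups overlapped.

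Averaged over the 6 time points, with 18 libraries an arm, the intervals were narrower. Mkks passed adjusted p alone, at -0.12 ± 0.04 on the log2 scale (adjusted p = 0.00832, edgeR; 39.7% of all genes passed), and it was lower at 6 of 6 time points. At 0 h it had 11.2, 10.7 and 11.4 CPM in NT and 9.61, 9.29 and 10.1 CPM in IFT88siRNA, which did not overlap. In TPM the averaged difference of Mkks was not past an unadjusted p of 0.05, and its counts carry the overlap with AL731706.1 given earlier. Bbs9 was 0.09 ± 0.04 (adjusted p = 0.0507) and higher at 5 of 6 time points. Ttc8 was higher at 6 of 6, by 0.06 on average (95% interval -0.00 to 0.12, adjusted p = 0.125). The other averaged differences lay between -0.07 for Bbs10 and 0.03 for Arl6, so 0 of 10 genes were called, against 1.93% of all genes. DESeq2 and limma also called 0, with 2 and 0 genes at an unadjusted p under 0.05.

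**Figure D4:**
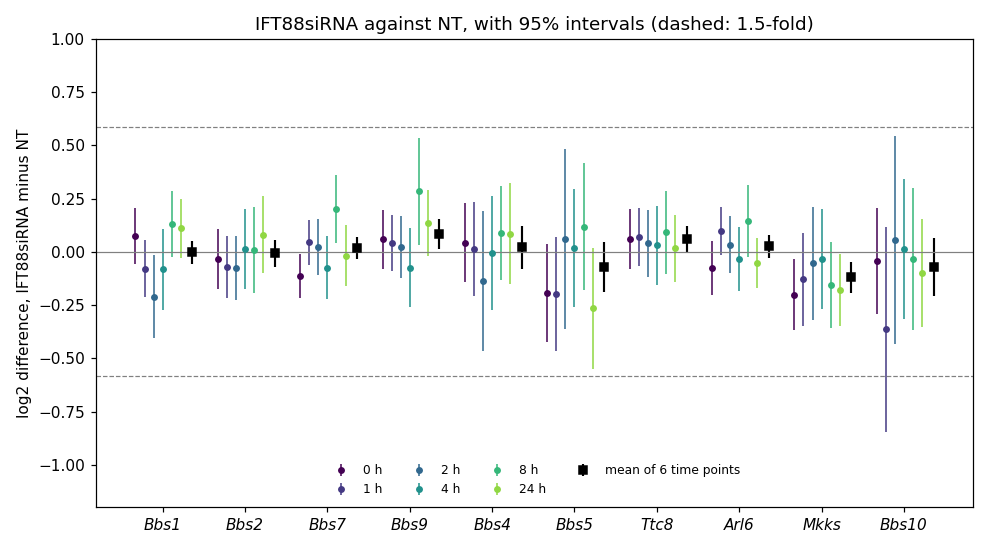
log2 difference between IFT88siRNA and NT for each gene at the 6 time points (coloured circles) and averaged over them (black squares), with 95% intervals and dashed lines at 1.5-fold. All points lie within the dashed lines, and the interval of Bbs10 at 1 h, -0.84 to 0.12, is the one that crosses them.

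Bbs1 was the gene of the 10 that passed the tests of the arms over the whole course, on adjusted p alone. The test of all 6 differences together gave an adjusted p of 0.0197 for Bbs1 with edgeR (31.8% of all genes passed), and the test of a different response to IL-1β gave 0.0466 (5.53% of all genes passed). At 2 h NT libraries had 16.3, 18.3 and 14.97 CPM and IFT88siRNA libraries 14.4, 13.9 and 14.7 CPM, all lower. At 8 h NT had 14.8, 15.03 and 15.3 CPM and IFT88siRNA 16.5, 17.3 and 16.2 CPM, all higher. Relative to 0 h, the change in IFT88siRNA differed from that in NT by -0.28 at 2 h and 0.07 at 8 h on the log2 scale. With the fold threshold 0 of 10 genes were called in either test, against 5.19% (all differences) and 1.20% (response) of all genes, and 4 and 2 genes were at an unadjusted p under 0.05. DESeq2 gave an adjusted p of 0.0989 for the response of Bbs1, and 0 of 10 passed on adjusted p in either test with DESeq2 or limma. Without replicate 1 the adjusted p was 0.602, and without replicate 2 it was 0.677.

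The partners of the BBSome in ciliary traffic were described from lists fixed with earlier results known. Of 16 traffic partners (transport subunits, Rab GTPases and satellite proteins), edgeR called 5 over the course in NT and 6 in IFT88siRNA, below the 50.0% and 48.2% of all genes. Rab8b, a GTPase of vesicle delivery to the cilium, rose most, by 1.73 ± 0.06 at 4 h in NT and 1.5 ± 0.07 in IFT88siRNA (adjusted p = 7.25e-18 and 8.23e-16). Rab11b rose at 2 h, by 0.79 and 0.77. The satellite protein gene Cep131 fell most at 4 h, by 1.01 ± 0.09 in NT and 1.2 ± 0.09 in IFT88siRNA (adjusted p = 1.03e-09 and 2.01e-11), and Inpp5e, a ciliary phosphatase, by 0.73 ± 0.06 and 0.88 ± 0.07. Ift27, which links the trains to the BBSome, fell at 4 h in NT by 0.59 ± 0.07. In the siRNA comparisons 0 of the 16 were called at any time, where at most 2.66% of all genes were. On adjusted p alone 5 passed at 0 h and 5 at 1 h, against 19.5% and 19.0% of all genes, and 0 at each later time point. Averaged over the 6 time points 9 of the 16 passed, 6 higher and 3 lower, against 39.7% of all genes. In the test of all 6 differences together 9 passed, against 31.8%. The test of a different response to IL-1β passed for 0, against 5.53%.

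Of 8 receptors and receptor-like proteins that the BBSome carries, 4 were tested in NT and 5 in IFT88siRNA, since Mchr1 passed the filter on low counts in the latter alone. Ptch1, the Hedgehog receptor, rose by 1.98 ± 0.05 at 4 h and 2.46 ± 0.05 at 24 h in NT, and by 1.66 ± 0.06 and 1.87 ± 0.06 in IFT88siRNA. The response of Ptch1 differed between the arms (adjusted p = 4.9e-05, edgeR), by -0.60 at 24 h on the log2 scale. Smo, which Ptch1 restrains, fell at 4 h by 0.68 ± 0.05 in NT and 0.88 ± 0.06 in IFT88siRNA. Lepr, the leptin receptor, rose by 1.54 ± 0.18 at 2 h and fell by 1.08 ± 0.24 at 24 h in NT (adjusted p = 8.22e-08 and 0.000779). It was the sole gene of this list called between the arms at 0 h, at 0.63 ± 0.19 (adjusted p = 0.0219, edgeR), where 2.23% of all genes were called. Lepr did not pass there with DESeq2 (adjusted p = 0.101). On adjusted p alone 3 of the 5 genes tested at 0 h passed, all higher, against 19.5% of all genes. On the log2(TPM + 1) scale the values of Lepr at 2 h in NT and between the arms at 0 h were 0.07 and 0.18, neither past the threshold.

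Among 12 genes of other Bardet-Biedl loci, 11 were matched. Of these 3 were called over the course in NT and 2 in IFT88siRNA, below the 50.0% and 48.2% of all genes. At 4 h 8 of 11 were lower and 2 higher on adjusted p alone in each arm, where 29.7% of all genes were lower and 31.2% higher in NT and 29.4% and 30.4% in IFT88siRNA. Trim32, a ubiquitin ligase, fell at 2 h by 0.72 ± 0.05 in NT and 0.73 ± 0.06 in IFT88siRNA. Mks1, a transition zone gene, was at -1.2 ± 0.42 at 2 h in NT (adjusted p = 0.0161) and at -0.46 ± 0.37 in IFT88siRNA (adjusted p = 0.304). Of 7 transcription factors, genes of the RFX family and Foxj1, 6 were tested. They were listed by family, and a role of each in cilia was not tested. Over the course edgeR called 3 in NT and 2 in IFT88siRNA, beside the same 50.0% and 48.2%. Rfx5 rose at 4 h by 0.74 ± 0.06 in NT and 0.63 ± 0.06 in IFT88siRNA, whereas Rfx7 fell by 0.79 ± 0.05 in NT. Foxj1, the master regulator of motile cilia, fell at 24 h by 1.16 ± 0.20 in NT and 0.90 ± 0.19 in IFT88siRNA. No gene of these 2 lists was called between the arms at any time point, against the background shares given earlier. On adjusted p alone 4 of the 11 locus genes and 2 of the 6 factors passed at 1 h, against 19.0% of all genes. Averaged over the 6 time points 5 of the 11 passed, 1 higher and 4 lower, and 3 of the 6 factors, all lower. Of all genes 39.7% passed there.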

How the data were processed

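The 10 genes, the gene lists, the tests and the promoter motifs were chosen with earlier results of these data known. Per the labels and the study's methods, paired-end poly(A) reads were aligned with HISAT2 2.1.0 to GRCm38. The authors deposited raw counts per gene (featureCounts of Subread 1.6.3) and TPM (salmon 0.9.1). Overlapping exons and strand can affect the counts, and TPM depends on the other genes of its library. Counts were tested with edgeR 4.0.16 (TMM, filterByExpr, quasi-likelihood F-test, two-sided, Benjamini-Hochberg over all genes tested) in R 4.3.3, on the 6 libraries of a time point, the 18 of an arm for IL-1β, or all 36. A gene was called at an adjusted p under 0.05 and a fold over 1.5, for joint tests in any of the changes. CPM used TMM over all 36 libraries, whose factors ran from 0.892 to 1.12. Alternatives were DESeq2 1.42.0, limma 3.58.1 on log2(TPM + 1) or log2(TPM + 0.1) with at least 1 TPM in 3 libraries, RLE and upper-quartile scaling, no filter, no fold threshold, a replicate block, all 36 libraries in 1 model, and leaving out each replicate.

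The procedure was tested on simulated counts with 200 changed genes, and shares are of the changed genes that the filter kept. For the 0 h comparison of the arms, on 15111 genes, 96.0% of 2-fold and 69.4% of 1.5-fold changes passed on adjusted p. For the test over the course in NT, on 15661 genes changed at 2 h or unchanged, these shares were 79.6% and 67.3%. Genes named were all 10; list genes called in a contrast or with the highest or lowest value of their list; Ift88; and the 3 genes nearest in course to Bbs7, the member with the smallest adjusted p over the course in NT, and to the mean profile. Of 53421 gene identifiers, 53360 were in GENCODE M21. Depth limits Bbs10 most. Cfap418 was not matched. Protein sequences were not used here.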

Additional observations from a re-analysis of the deposited data

Results flagged for a closer look

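The response of Bbs1 to IL-1β differed between the siRNA arms by the interaction test over the 5 time points (adjusted p = 0.0466, edgeR's quasi-likelihood test). The change in IFT88siRNA minus that in NT was -0.15 at 1 h, -0.28 at 2 h, -0.15 at 4 h, 0.07 at 8 h and 0.04 at 24 h on the log2 scale. The adjusted p was 0.0427 with upper-quartile scaling and 0.05 with the replicate block, and it missed the threshold with RLE size factors (0.059), DESeq2 (0.0989), no filter on low counts (0.452) and log2(TPM + 1) (0.314). It was 0.602 without replicate 1, 0.677 without replicate 2 and 0.0404 without replicate 3. Groups of 3 libraries are too small for the check for a sample far from the others.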

How the results depend on the processing

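No siRNA comparison called any of the 10 genes under any alternative that kept the fold threshold. On adjusted p alone, 1 passed in the averaged difference, 1 in the differences over the course and 1 in the response. The shares of all genes were 39.7%, 31.8% and 5.53%. For IL-1β on adjusted p alone, the counts were 9 in NT and 10 in IFT88siRNA over the course, 6 at 1 h, 8 at 2 h, 8 at 4 h, 6 at 8 h and 6 at 24 h in NT, and 4 at 1 h, 7 at 4 h, 5 at 8 h and 4 at 24 h in IFT88siRNA. Of all genes, 88.4% in NT and 86.0% in IFT88siRNA passed over the course by that rule. Counts under the alternatives, here and in the next paragraph, were not set against shares of all genes. They describe only how the calls moved. Under upper-quartile scaling 8 genes were called in NT over the course, 5 at 4 h in either arm, and 1 each at 1 and 8 h in IFT88siRNA. With log2(TPM + 1), with or without a filter, 1 was called at 1 h in either arm and 4 at 4 h in NT; with log2(TPM + 0.1) 1 was called at 1 h in NT and 5 at 4 h in either arm. Without a filter on counts 4 were called at 4 h in NT. These alternatives shift the median of all genes: in NT by -0.12 at 2 h and -0.14 at 4 h with upper-quartile scaling, and by -0.14 at 1 h and -0.22 at 2 h and at 4 h with log2(TPM + 1). Of all genes called at 2 h in NT, 52.4% were lower by edgeR with TMM and 73.2% with log2(TPM + 1), and at 4 h 43.3% and 62.0%, or 54.3% with upper-quartile scaling. Among 63 single changes past adjusted p, Bbs1 at 1 h in NT alone reversed, to -0.000259 with log2(TPM + 1), filtered or not, and -0.000234 with log2(TPM + 0.1). With log2(TPM + 1) it was 0.14 relative to the median of all genes. The other alternatives kept the sign, and 83 of 753 missed the threshold; the cause was not tested.

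Leaving out 1 replicate gave 4 (Bbs5 lost, without replicate 2) to 6 genes in NT and 6 to 7 in IFT88siRNA over the course. It gave 1 to 3 genes in NT at 1 h, the lowest without replicate 1, and 1 to 2 at 4 h, the highest without replicates 2 or 3. In IFT88siRNA it gave 0 to 1 at 8 h and 0 to 1 at 24 h, Bbs7 being called without replicate 2. Replicate numbers gave no clear sign of pairing: 2 of 18 same-numbered pairs had deviations correlated over 0.1 (range -0.133 to 0.223). Pairs with other numbers ranged from -0.303 to 0.319. Groups of 3 libraries are too small for this check to exclude pairing. The replicate block left 5 called in NT and 6 in IFT88siRNA.

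As a share of the summed level of the 10 genes, TMM CPM per kb of exonic length gave 34.6% for Arl6 (30.4% in TPM), 14.8% for Bbs7 (19.5%), 10.7% for Ttc8 (11.7%), 11.5% for Bbs2 (8.50%), 4.40% for Bbs5 (6.72%), 2.92% for Bbs4 (4.30%), 4.86% for Bbs1 (3.57%) and 2.51% for Bbs10 (1.55%). Depth limits Bbs10, at 26 to 174 counts a library.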
